A study of Homo sapiens with 2 samples.

Results

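The regions described here are the MSI2 CLIP-seq peaks of NB4 cells that lay at the 5' end of a long run of peaks and were found in both libraries. NB4 is an established human acute promyelocytic leukaemia line, and CLIP-seq uses ultraviolet light to fix a protein to the RNA it touches, an antibody to recover that protein, and sequencing of the attached RNA fragments. The series held 2 libraries of 1 group, labelled replicates 1 and 2, each from NB4 cells crosslinked at 400 mJ per square centimetre and recovered with an antibody to MSI2. All samples analysed here carried the same antibody and line, and the labels do not say whether the replicates came from separate cultures. Libraries from another antibody, from input RNA or from cells lacking MSI2 were not analysed here, so a peak found in both libraries cannot be told apart from background that recurs.

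The members were chosen by 2 measured values, position and overlap. Under each gene ID, the peaks of both libraries together were taken to run from the outermost peak at the 5' end to the outermost at the 3' end, and 3247 of 8801 gene IDs had such a span of 10 kb or more. A replicate 1 peak was a member if its midpoint lay in the 5'-most 10% of the span by strand and at least 1 nt of it was covered by a replicate 2 peak of the same strand. This gave 536 members under 425 gene IDs, out of 25920 peaks in replicate 1, or 2.07% of that list (95% Wilson interval 1.90% to 2.25%). They were 9.53% (8.79% to 10.3%) of the 5623 recurrent peaks in the long spans, where 33.9% of 16575 replicate 1 peaks recurred. A gene ID with a member made up 13.1% (12.0% to 14.3%) of the long spans, against 62.1% with a recurrent peak at any place in the span. All these shares were fixed by the choice of members and are given as descriptions, and the intervals, here and below, cover counting error only. Peaks of 1 library are not replicates of a condition and the design has no second group, so no comparison below has a test.

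MSI2 belongs to the Musashi family of RNA-binding proteins, which carry paired RNA recognition motifs and contact short UAG-containing stretches of single-stranded RNA. The family is best known for binding 3' untranslated regions and changing the translation or stability of the bound mRNA, and MSI2 is a known regulator of blood stem cells and of myeloid leukaemia. The 5' end of a transcript holds its cap, its 5' untranslated region, the start codon and the first introns, where ribosome loading and early splicing take place. The span used here is set by peaks and not by an annotated transcript, so its 5' end is the outermost peak and can lie downstream of the true transcript start. Exon positions of hg19, the build named in the submitters' processing notes, were not used here. The files give Ensembl gene IDs without names, and 0 of the 425 member IDs matched a symbol in the RefSeq gene table used here, so the regions are given by position and markers of the line could not be looked up.

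Each peak carries a whole number at the end of its name, called its tally here. It was 3 or more in every peak and is read as a measure of peak size that no header or label defines. Over the whole lists it came to 155598 for replicate 1 and to 133644 for replicate 2, a ratio of 0.859, and the depth of the libraries is unknown. All positions below are hg19 and 1-based, and a peak's partner is the overlapping replicate 2 peak with the highest tally.

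Ranked by the smaller of its 2 tallies, the strongest 5'-end member lay on the plus strand at chr5:314761-314880, with a tally of 38 in replicate 1 and 43 in replicate 2. It was listed under ENSG00000063438.12, whose peaks span 122.1 kb, and lay 0.256 kb from the 5' end of that span. The partner at chr5:314763-314879 covered almost the same bases. The deposited p of the authors' lists was 4.71e-23 and 2.46e-27. The same interval was listed under 2 gene IDs, so the files do not settle which gene it belongs to. Under this ID 2 other members lay at chr5:314565-314570, with tallies of 6 and 11, and at chr5:315033-315082, with tallies of 17 and 9, and no recurrent peak was found in the 3'-most 10%. The site was thus the highest of 8 peaks listed under the ID in replicate 1 and of 9 in replicate 2.

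On the minus strand of chromosome 8, 4 members lay within 0.384 kb of the 5' end of an 18.6 kb span, that of ENSG00000070756.9. The outermost, chr8:101733977-101734033, had a tally of 18 in replicate 1 and 35 in replicate 2. The next, chr8:101733910-101733946, had 11 and 22. The peak at chr8:101733807-101733864 had 19 and 38, and the innermost, chr8:101733619-101733707, had 37 and 56. All 4 were thus higher in replicate 2, by 1.51 to 2.00 times, and their tallies summed to 85 and 151. In the middle of the same span, 7 recurrent peaks summed to 156 in replicate 1, and the 8 replicate 2 peaks that overlap them summed to 131. 1 of the 7 was higher in replicate 2. The 2 recurrent peaks in the 3'-most 10% summed to 29 and 24. There is no further replicate to measure the spread of these sums, and peaks were called separately in each library.

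A gene ID on the minus strand of chromosome 6, whose peaks span 14.8 kb, carried 2 of the 15 strongest members. The peak at chr6:24718883-24719004 had tallies of 40 and 35, and the peak at chr6:24719845-24719936, which set the 5' end of the span, had 22 and 35. The order of the pair differed between the libraries, since the inner peak was the higher in replicate 1 and they were equal in replicate 2. A minus-strand member at chr19:12907664-12907751 had tallies of 23 and 24 and lay 0.195 kb from the 5' end of a 33.9 kb span with 3 peaks in replicate 1 and 2 in replicate 2. This interval was also listed under 2 gene IDs. On chromosome 5, 2 minus-strand members of a 23.8 kb span at chr5:79946522-79946619 and chr5:79947208-79947289 had tallies of 19 and 27 and of 19 and 22. Each library listed 4 peaks under that ID, and none outside the 5'-most 10% recurred. The former interval was also listed under another gene ID.

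The other members of the strongest 15, ranked by the smaller of the 2 tallies, were as follows. A minus-strand peak at chr17:56358048-56358082 had tallies of 18 and 26, 19.5 nt from the 5' end of a 10.7 kb span. A minus-strand peak at chr3:47165395-47165462 had 25 and 17. A plus-strand peak of only 7 nt at chr10:70847943-70847949 had 16, and its partner at chr10:70847925-70847967, with 22, extended past it on both sides. Minus-strand peaks at chr12:21807482-21807542 and chr2:39278306-39278429 had tallies of 20 and 15 and of 19 and 15. The latter lay 5.63 kb inside its 72.7 kb span. The remaining one lay on chromosome 18 and is given with its cluster below. These 15 members fell under 11 gene IDs, and 13 of them lay within 1 kb of the 5' end of their span. In 10 of the 15 the tally was higher in replicate 2 and in 5 it was lower. In 11 the centres of the short inner intervals, as deposited, lay within 10 nt of each other in the libraries. The lowest smaller tally in this set was 15. Ties were broken by the replicate 1 tally, which left out 2 members with 15 in both libraries, chr15:72509764-72509842 and 1 of the chromosome 18 cluster. In all, 51 of the 536 members, 9.51% (7.31% to 12.3%), had a tally of 10 or more in both libraries.

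Most members were small. The tally in replicate 1 ranged from 3 to 40, with a median of 5 and quartiles of 4 and 8. The partners ranged from 3 to 56, also with a median of 5 and with quartiles of 4 and 7. A tally of 3, the lowest in the lists, was held by 18.3% of members in replicate 1 and by 24.6% of partners in replicate 2, and 42 members (7.84%) had a tally of 3 in both. The tallies differed by at most 2-fold in 472 members, or 88.1% (85.0% to 90.5%). Only peaks listed in both libraries enter, and most tallies lie near the lowest of 3, which limits how far they can differ. They were higher in replicate 2 for 183, lower for 247 and equal for 106. Across the 536 members the rank correlation of the tallies (Spearman) was 0.498 and that of their log2 values (Pearson) was 0.619, over peaks that share the same 2 libraries. The widest ratios were 3.25 and 0.231. The first belonged to the narrow minus-strand peaks chr1:245026676-245026679 and chr1:245026693-245026707, each with a tally of 4 in replicate 1 against the same partner of 13. The other belonged to the minus-strand peak chr12:133530838-133530913, with 13 and 3. These peaks were singled out after their values were seen.

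**Figure D1:**
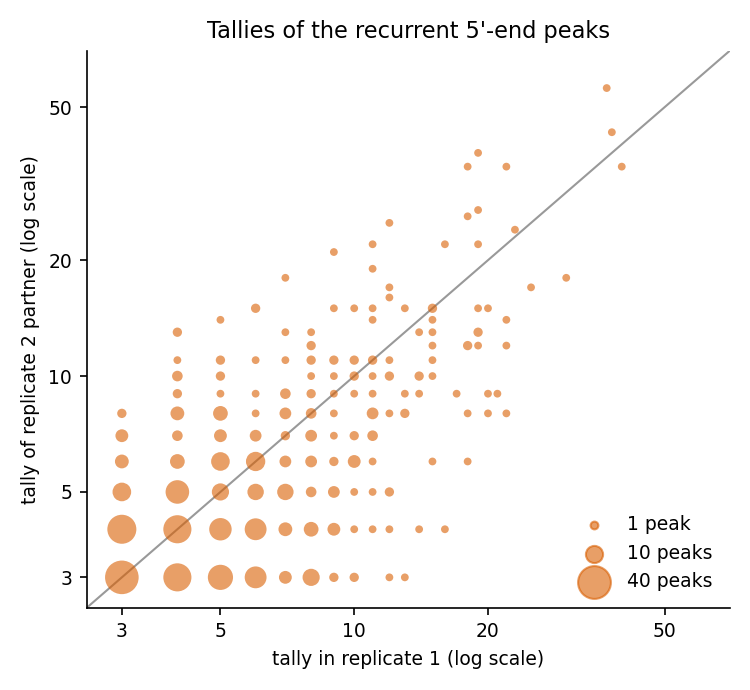
Tallies of the 536 recurrent 5'-end peaks, with replicate 1 on the x axis and the replicate 2 partner on the y axis, both on log scales; the area of a point grows with the number of peaks at that pair of values and the grey line marks equality. Most points lie at the low end, with a median of 5 in each library, and the strongest reach 40 in replicate 1 and 56 in replicate 2.

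Recurrent peaks in the 3'-most 10% had higher tallies than the 5'-end members and were wider. The 2015 recurrent peaks in the middle had a median tally of 6 in replicate 1 and 5 in their partners, and the 3072 in the 3'-most 10% had medians of 8 and 6. A tally of 10 or more in both libraries was held by 12.0% (10.6% to 13.5%) in the middle and 19.6% (18.2% to 21.0%) in the 3'-most 10%, against 9.51% of the 5'-end members. The 5'-end members had a median width of 45 nt (quartiles 33 and 59), close to the 46 nt of the middle and below the 55 nt of the 3'-most 10%. The offset between overlapping peaks was similar in the 3 parts, but the overlap rule itself keeps it small, so it does not measure precision. The centres of the inner intervals of a member and its partner lay a median of 7 nt apart and within 10 nt in 64.7%, against 66.5% in the middle and 65.3% in the 3'-most 10%. Summed over the members, the partners' tally was 0.938 times that of replicate 1. That ratio was 0.882 in the middle and 0.830 in the 3'-most 10%. When peaks were taken from replicate 2 in place of replicate 1, the ratios in the same order were 0.907, 0.852 and 0.794. The ratio over the whole lists was 0.859. These are ratios of sums over separately called peaks at unknown depth, so they measure no gain or loss of signal.

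Recurrence itself was lower at the 5' end than elsewhere in the spans. In replicate 1, 536 of 2722 peaks in the 5'-most 10% recurred, or 19.7% (18.2% to 21.2%), against 31.7% (30.5% to 32.8%) in the middle and 41.0% (39.9% to 42.1%) in the 3'-most 10%. In replicate 2 the shares were 19.3%, 32.1% and 45.9%. The rule puts every peak that sets a 5' end into the 5'-most 10%, also where it stands alone. Of these end-setting peaks of replicate 1, 152 of 1614 (9.42%) recurred, while 384 of the 1108 others (34.7%, 31.9% to 37.5%) did. Some of the others overlap the replicate 2 peak that sets the 5' end, and so recur by construction. With these left out too, 248 members remained and the share that recurred was 25.5%. This step drops only peaks that recur, so it lowers the share by construction, and neither 34.7% nor 25.5% is free of the rule. At the 3' end, the division by replicate 1 end-setting peaks alone gave 25.5% of end-setting peaks and 46.4% (45.1% to 47.7%) of the others. Over the 2877 long spans with peaks in both libraries, the outermost 5' peaks of the libraries overlapped in 283 (9.84%), and the outermost 3' peaks in 823 (28.6%).

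**Figure D2:**
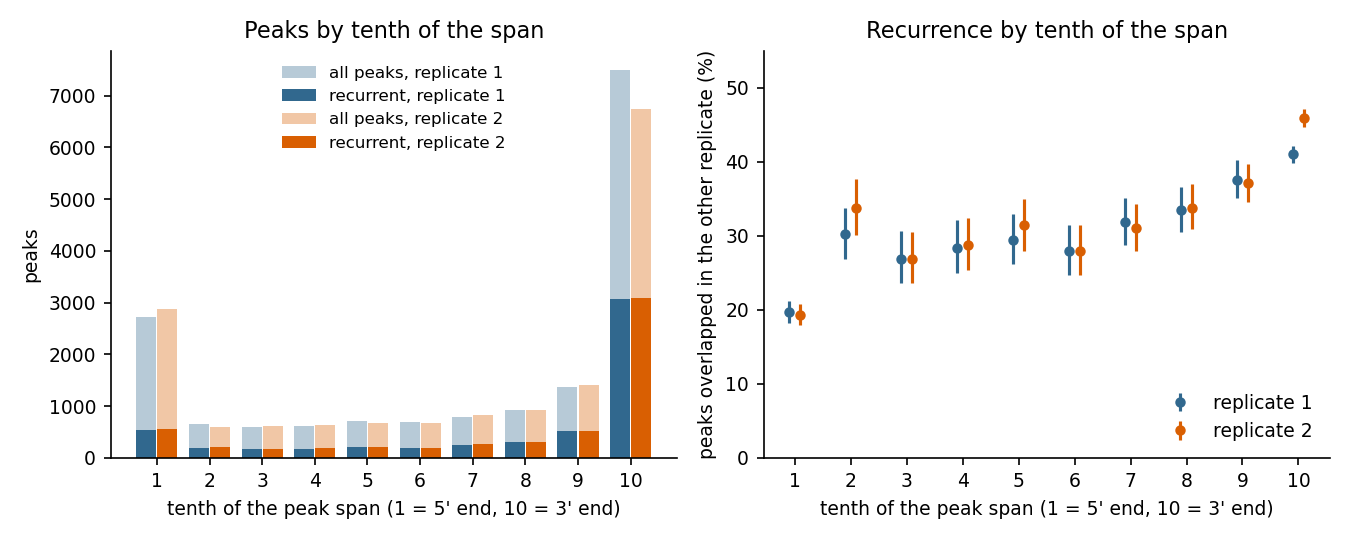
Left, number of peaks in each 10% of the span for both replicates, with the recurrent ones in full colour; right, share of peaks overlapped in the other replicate, with 95% Wilson intervals. The 5'-most 10% held 2722 and 2879 peaks, more than any part but the 3'-most, and had the lowest share recurrent, 19.7% and 19.3%. Both depend on the rule, which puts every peak that sets a 5' end there, 1614 and 1650 of these peaks. The others, 1108 and 1229, were fewer than the 1376 and 1401 peaks of part 9.

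Peaks of low tally recurred less often at the 5' end than elsewhere, and peaks of high tally about as often. With a tally of 3, 6.63% (5.47% to 8.01%) of replicate 1 peaks in the 5'-most 10% recurred, against 11.9% in the middle and 13.4% (12.0% to 14.9%) in the 3'-most 10%. In replicate 2 the shares were 7.66%, 14.4% and 21.8%. With a tally of 5 the shares were 30.2% (25.0% to 36.0%), 37.7% and 34.4% in replicate 1 and 36.8%, 43.4% and 48.0% in replicate 2. With a tally of 6 to 9, 161 of 322 peaks of replicate 1 recurred at the 5' end (44.6% to 55.4%), against 53.7% and 54.2% in the other parts, and in replicate 2 the shares were 56.9%, 61.1% and 67.4%. With a tally of 10 to 19 the 3 parts were close in replicate 1, at 84.2% (75.6% to 90.2%, 80 of 95 peaks), 83.3% and 85.0%, and in replicate 2, at 87.0%, 85.0% and 88.6%. Of the peaks with a tally of 20 or more at the 5' end, 14 of 15 recurred in replicate 1 and 14 of 14 in replicate 2. The 5'-most 10% was also richer in the smallest peaks, since 1479 of its 2722 replicate 1 peaks had a tally of 3, against 2018 of 7492 in the 3'-most 10%. All these values pool end-setting peaks, which the rule puts at the ends, with other peaks. In replicate 1 they were 1614 of the 2722 at the 5' end and 1927 of the 7492 at the 3' end. Their part in the differences at low tally was not tested.

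**Figure D3:**
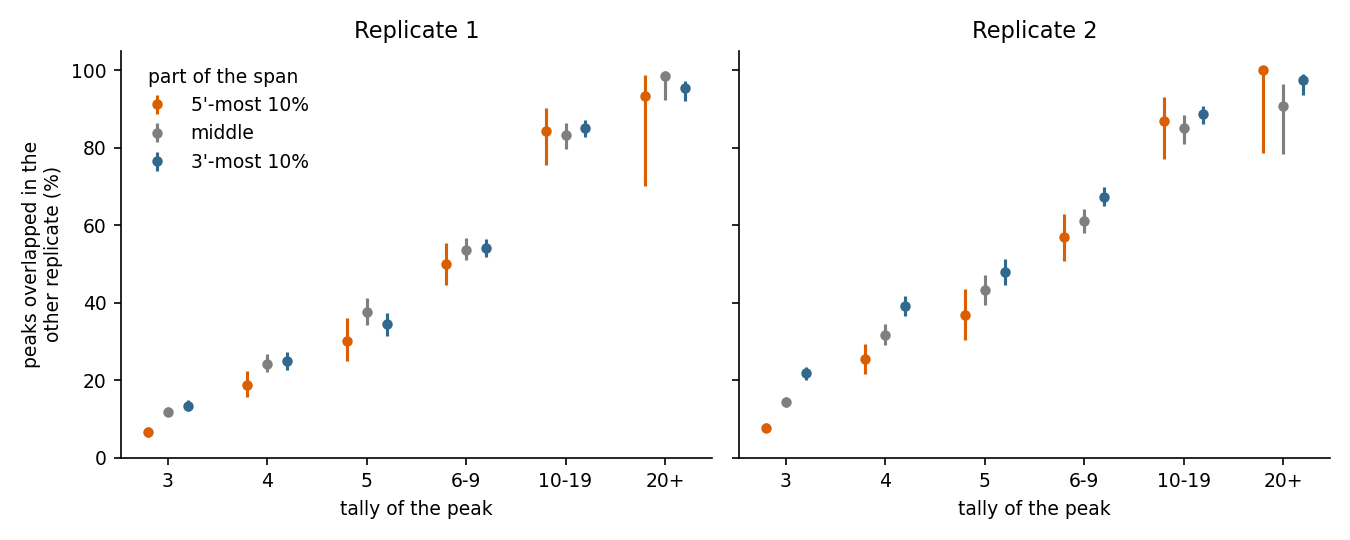
Share of peaks overlapped in the other replicate by the tally of the peak (x axis) and the part of the span (colours), with 95% Wilson intervals, for each replicate. At a tally of 3 the 5'-most 10% is lowest in both replicates, at 6.63% and 7.66%, and at 10 to 19 the intervals of the 3 parts overlap. The shares pool peaks that set an end of the span with all others.

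The members fell into those at the outermost edge and those further in. Of the 536, 324 (60.4%, 56.2% to 64.5%) lay under 200 nt from the 5' end of the span and 262 of these under 50 nt, which is where the midpoint of an end-setting peak of the usual width falls. Another 65 lay from 200 nt to 1 kb inside and 147 lay 1 kb or more inside. The median distance was 53.8 nt, the third quartile 1204.5 nt and the greatest 75.1 kb. Size differed little with distance. The members under 200 nt had a median tally of 5 in each library, and 28 of them (8.64%) had 10 or more in both. Those from 200 nt to 1 kb had medians of 6 and 5, with 9 (13.8%) at 10 or more in both. Those 1 kb or more inside had medians of 6 and 5, with 14 (9.52%).

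**Figure D4:**
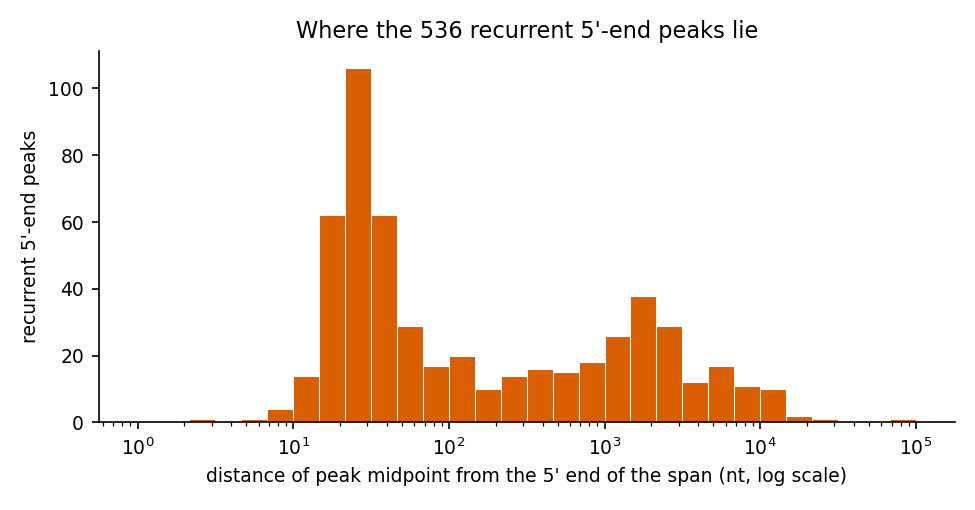
Number of recurrent 5'-end peaks by distance of the midpoint from the 5' end of the peak span, in nt on a log scale. One hump, of 324 peaks under 200 nt, holds the outermost peaks, and a lower one holds the 147 that lie 1 kb or more inside.

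The limits of the rule fell among ordinary peaks. Just inside the 10% limit lay the peaks chr5:1333523-1333568, with tallies of 10 and 6, chr5:37351420-37351458, with 6 and 4, and chr19:39200954-39200983, with 5 and 4. Just outside lay chr2:136630323-136630381, with 8 and 6, chr5:36168415-36168464, with 4 and 7, and chr5:132409708-132409819, with 14 and 5. The member in the shortest span, 10.1 kb, was chr12:27182183-27182237, with 11 and 8. The recurrent 5'-end peak in the longest span under 10 kb was chr12:133281479-133281535, with 8 and 4.

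Most gene IDs had a lone member, 347 of 425, while 60 had 2 and 18 had 3 or more. Clusters of members differed in spread and in the order of their tallies. The most, 8, belonged to ENSG00000197971.10 on the minus strand of chromosome 18, between chr18:74829595 and 74838690 in a span of 115.8 kb. These 8 members had 7 distinct partners. They were 2 groups. Near the 5' end, 4 small members lay 2.02 to 4.51 kb inside, with tallies of 3 to 8 in replicate 1 and 3 to 5 in replicate 2. Further in, 4 larger members lay 10.1 to 11.1 kb inside. Of these, chr18:74830520-74830605 had tallies of 30 and 18, chr18:74830249-74830286 had 14 and 13, chr18:74829738-74829860 had 21 and 9, and chr18:74829595-74829655 had 15 and 15. The first of these was the highest peak of the ID in both libraries. The ID also had 4 recurrent peaks in the 3'-most 10% and none in the middle. The highest tallies among the 4, each taken within its own library, were 22 in replicate 1 and 15 in replicate 2. These 2 values belong to different sites. With 8 of the 20 members on chromosome 18, this ID took much of that chromosome's share, the highest of any, at 19.8% (13.2% to 28.6%) of its recurrent long-span peaks. Chromosome 3 had the lowest, 17 of 311, or 5.47% (3.44% to 8.58%).

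A second gene ID on the minus strand of chromosome 8, with a span of 186.8 kb, had 6 members spread from 0.0385 to 16.8 kb inside. These 6 members had 5 distinct partners. Their tallies were 4 to 10 (replicate 1) and 3 to 7 (replicate 2), below the 27 and 20 of the highest peak of the ID. On the plus strand of chromosome 2, a 30.5 kb span had 5 members and no other recurrent peak. They were chr2:217363586-217363601, with tallies of 4 and 8, the touching pair chr2:217363993-217364042 and chr2:217364043-217364122, with 8 and 10 against 1 shared partner of 11, chr2:217364671-217364757, with 22 and 12, and chr2:217366064-217366147, with 18 and 12. These 5 were among 8 peaks listed there in replicate 1 and 5 in replicate 2. Another plus-strand span on chromosome 2, of 17.6 kb, had 5 members from 0.023 to 1.57 kb inside. The highest of them, chr2:113404320-113404394, had 18 and 6, and the other 4 had 4 to 7 in replicate 1 and 4 in replicate 2. A minus-strand span on chromosome 10, of 28.2 kb, had 4 members within 1.71 kb, with 3 distinct partners. Their tallies were 4 to 11 in each library. A minus-strand span on chromosome 2, of 92.1 kb, also had 4 members, the outermost at chr2:44207022-44207064 with 11 and 8. The highest recurrent peak of that span, with 49 and 40, lay in the 3'-most 10%.

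**Figure D5:**
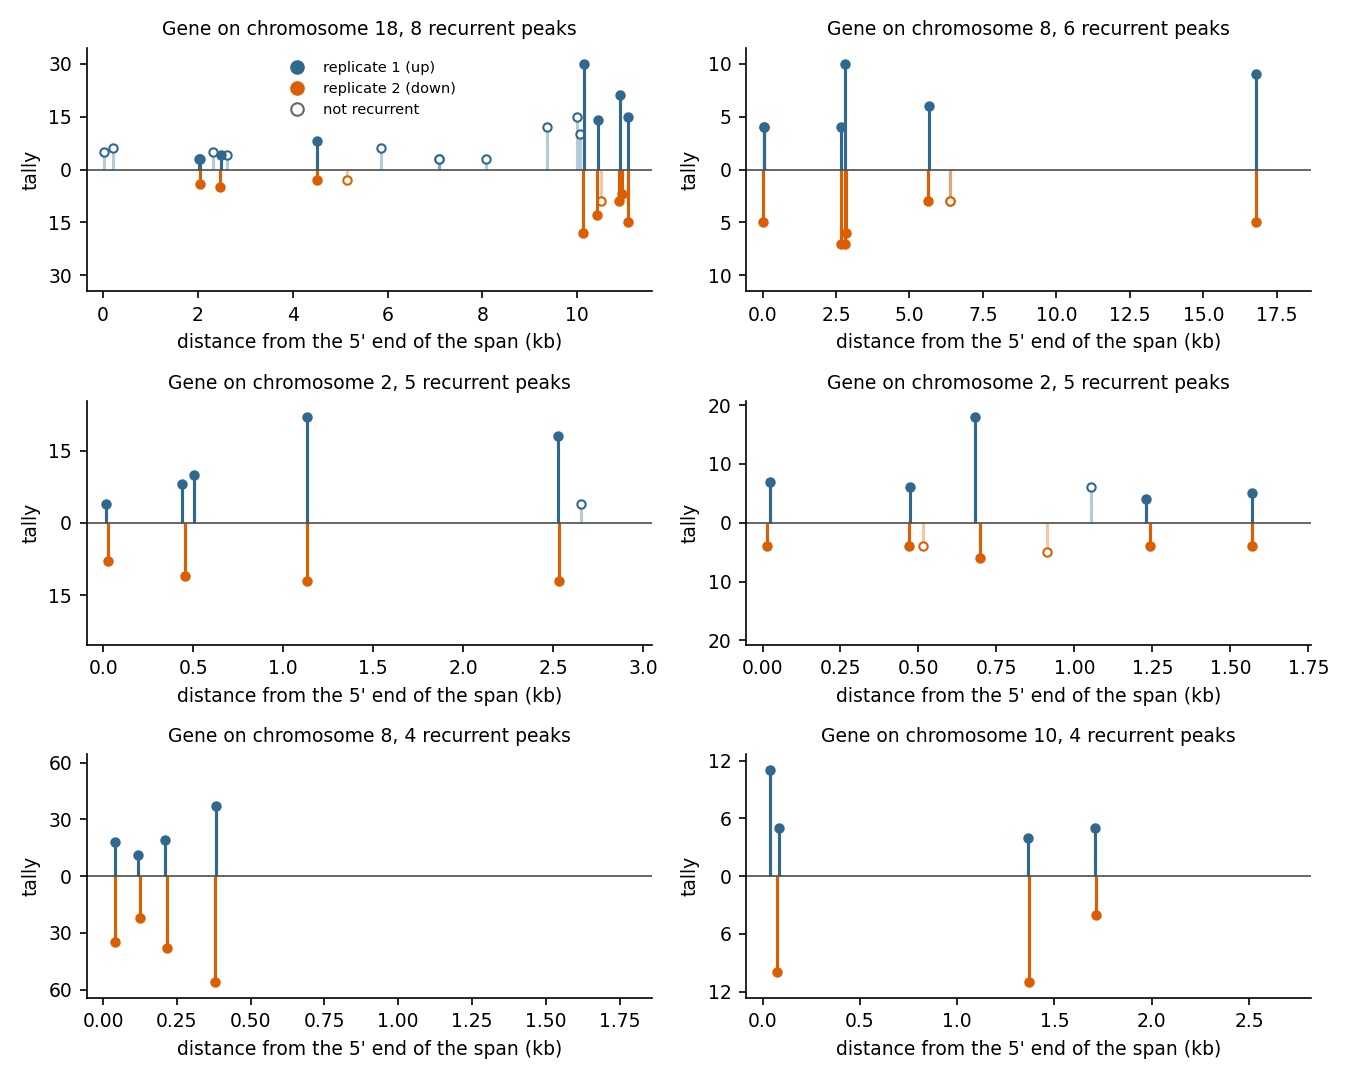
Tallies of all peaks in the 5'-most 10% of the span for the 6 gene IDs with the most members, against the distance from the 5' end in kb; replicate 1 points up, replicate 2 points down, and open circles mark peaks that did not recur. The chromosome 18 ID has its larger members 10.1 to 11.1 kb inside, and the 4 members of the lower chromosome 8 panel are all higher in replicate 2.

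Neighbouring members of 1 gene ID lay a median of 487.5 nt apart over 111 neighbouring pairs, and 57 pairs were under 500 nt apart. Some members may be pieces of 1 site, which was not tested. In 7 pairs the members touched end to end, 23 members were 10 nt wide or less, and the 536 members had 516 distinct partners. The 536 were 532 distinct intervals, so part of the sharing of partners is 1 interval listed under several IDs. In the other direction, 91 members were overlapped by 2 or more listed replicate 2 peaks, which can be 1 interval under several IDs.

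Gene IDs with a 5'-end member often had recurrent peaks elsewhere. Of the 425, 245 (57.6%, 52.9% to 62.3%) also had a recurrent peak in the 3'-most 10%, 200 (47.1%, 42.4% to 51.8%) had one in the middle, and 136 had both. Among the 2822 other long spans, the shares were 48.0% (46.1% to 49.8%) and 25.1% (23.5% to 26.7%). The member IDs also carried more peaks, a median of 12 over both libraries against 7, in spans of similar length, with medians of 32.5 and 37.5 kb. More peaks give more room for overlap at any place, and the part of this in the shares was not tested. Where an ID had recurrent peaks at both ends, the highest tally was usually at the 3' end. Over these 245 IDs, the highest member was above the highest recurrent 3' peak in 49 IDs in replicate 1 and below it in 186, with median tallies of 5 and 11. In replicate 2 it was above in 53, below in 163 and equal in 29, with medians of 5 and 8. The highest of more peaks tends to be larger, and over all long spans the 3'-most 10% held 3072 recurrent peaks under 1599 IDs. The 5'-most 10% held 536 under 425. The part of this in the comparison was not tested.

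In 116 gene IDs (27.3%, 23.3% to 31.7%) the only recurrent peaks were at the 5' end. These IDs held 143 members and a median of 6.5 peaks over both libraries. Their members had a median tally of 5 in each library, as did the other 393, and 16 of the 143 had 10 or more in both, against 35 of the 393. The strongest were chr19:12907664-12907751 and the minus-strand pair chr5:79946522-79946619 and chr5:79947208-79947289, all given above. The next were a plus-strand peak at chr13:99858106-99858186, with tallies of 15 and 14 in a span of 179.8 kb with 3 peaks in replicate 1 and 1 in replicate 2, and a plus-strand peak at chr7:5037257-5037364, with 19 and 13. The chromosome 7 interval was a member under 2 gene IDs. Of the peaks named in this paragraph, all but chr5:79947208-79947289 lay inside the span of another gene ID on the same strand. Which gene those peaks belong to is thus not settled, and the lack of other recurrent peaks holds only for the ID used here. In all, the highest peak of the ID was a member in 154 of the 425 IDs (36.2%) in replicate 1 and in 190 (44.7%) in replicate 2, ties included.

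Gaps between the innermost member and the rest of the span were often several kb. Peaks within 200 nt past the innermost member were not counted. The next peak of either library beyond that lay a median of 6.63 kb from the member. It lay 5 kb or more away in 233 of 425 IDs (54.8%, 50.1% to 59.5%). Such gaps were not measured for other peaks or other spans, so no background can be set beside them. The span of 10 kb rested on the 5' end in part of the IDs, since in 292 of 425 (68.7%) the peaks past the 5'-most 10% still covered 10 kb. Some members also lay inside the span of another gene ID on the same strand, 78 of 536, or 14.6% (11.8% to 17.8%). This was more often than in the middle, at 7.10% (6.06% to 8.30%), or in the 3'-most 10%, at 6.58% (5.75% to 7.51%). On the opposite strand it was 1 of 536. Members listed under more than 1 ID numbered 33 (6.16%), against 2.78% and 3.61% of the recurrent peaks in the middle and the 3'-most 10%. The 78 were larger, with a median tally of 6 in each library against 5 and 4.5 in the other 458, and held 15 of the 51 members with 10 or more in both. They include 3 of the strongest 15, among them the first by the smaller tally, but neither the highest member of replicate 1 nor that of replicate 2. For these members the files do not settle the gene ID. Some lay at the 5' end under 2 IDs, such as chr1:78445891-78445947, which was 28.5 nt from the 5' end under both. Where the spans start apart, a 5' end of 1 gene ID and an inner or 3' part of another cannot be told apart. How many of the 78 were of each kind was not counted.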

How the data were processed

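The data are 2 peak lists, 1 per library, in an 8-column layout without a header. The build was hg19 and the tools were Bowtie 1.0.0, STAR 2.3.0e and cutadapt, per the submitters' processing notes, with no peak caller named. The p-values are those the authors deposited and were used only to describe and filter peaks. Whether they were adjusted is not stated. Spans, positions, overlaps and tallies were computed in Python 3.11.15 with NumPy 2.4.6 and pandas 2.3.3, Wilson intervals with SciPy 1.17.1, and plots with matplotlib 3.10.9. The rule was tested on simulated data. No test was run, since the design has 1 group of 2 libraries. The members and lists were chosen with earlier results of these data known. Regions named are the 15 members with the highest smaller tally, the 8 gene IDs with the most members and the peaks nearest the limits. The gene and marker lists planned could not be matched to IDs.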

Additional observations from a re-analysis of the deposited data

How the results depend on the processing

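Of 87 recomputed values, 45 stayed within 1.5 times (counts), the Wilson interval (shares) or 1 SD (medians). The SD is between the values with members taken from replicate 1 and from replicate 2. Both values rest on the same overlapping pairs, so it is not a spread of independent replicates. It was 0 for the median tally, so any change there fell outside. Leaving out end-setting peaks here also drops replicate 1 peaks that overlap a replicate 2 peak setting the 5' end. All of those recur, so that part of the step lowers the share that recurred by construction. The number of members was 165 with a minimum span of 50 kb, 248 without peaks that set the 5' end, and 176 without peaks within 500 nt of it, under 128, 192 and 136 gene IDs. The share that recurred was then 15.1%, 25.5% and 26.7%, and 14.4% with reciprocal overlap of 50%, 28.6% in the stronger 50% by p, and 22.2% over spans of 10 kb past the 5'-most 10%. The median tally was 6 with reciprocal overlap, without end-setting peaks, with peaks merged within 50 nt and without peaks within 500 nt, and 7 in the stronger 50%. The median width was 47 nt with reciprocal overlap, 51.5 nt in the stronger 50% and 43 nt for members taken from replicate 2. The share of IDs with a recurrent 3' peak fell to 49.7% with reciprocal overlap. The median distance was 102.5 nt (50 kb), 36 nt (5'-most 5%), 49 nt (reciprocal), 1413.2 nt (no end-setting peaks), 51 nt (no intervals under several IDs), 55.2 nt (merged), 39.5 nt (stronger 50%), 54 nt (from replicate 2), 2044 nt (past 500 nt), 79 nt (10 kb past the 5'-most 10%) and 52.8 nt (outside other spans). Apart from the lowering of the share named above, the cause was not tested, except that leaving out peaks at the end raises the distance by construction. Without 1 replicate every peak of the other counts, which gave 3142 to 3195 peaks, 2119 to 2255 IDs, a median tally of 3, widths of 35 to 36 nt and a distance of 22.5 nt. No share can then be given. The alternatives on 500 nt, on 10 kb past the 5'-most 10% and on other spans were chosen after seeing the data. No paired analysis was possible because the design has 1 group. Most members rest on tallies near the lowest listed, 3, which limits what these lists can show.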
